A study of Brassica oleracea with 4 samples.

Results

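TSO2 encodes the small subunit of ribonucleotide reductase, and BRCA1 encodes a DNA repair protein. Of the 135 broccoli genes in the deposited table, 3 carry one of these names: Bo7g084180 and Bo2g140330, both matched to Arabidopsis TSO2 (AT3G27060), and Bo3g162790, matched to Arabidopsis BRCA1 (AT4G21070). They were taken by identifier, with their values already known. RNA came from the hypocotyls, the embryonic stems, of 10-day-old broccoli (Brassica oleracea) microgreens. All trays stood in the dark for 4 days and then in cycles of 12 h light and 12 h dark. Seedlings were sprayed once a day with water alone or with calcium chloride at 10 mmol/L, and the labels list 2 libraries for each spray without saying whether they came from separate trays. The table gives 1 RPKM value (reads scaled to gene length and to the mapped reads of the library) for each spray, so no value below has a replicate error or a test of its own, and the depth of the libraries is unknown.

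Ribonucleotide reductase turns ribonucleotides into the deoxyribonucleotides from which DNA is made, and its small subunit carries the iron centre and the radical that the reaction needs. In Arabidopsis, TSO2 is the main gene of this subunit and is transcribed mostly in cells that replicate DNA. BRCA1 takes part in the repair of double-strand breaks by homologous recombination, with its partner BARD1. In Arabidopsis both TSO2 and BRCA1 transcripts rise after DNA damage. The Arabidopsis hypocotyl lengthens mainly by cell expansion, and many of its cells copy their DNA without dividing.

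All 3 genes were lower in the calcium group. The TSO2 copies stood at 62.3 and 40.5 RPKM with water and at 13.8 and 8.92 RPKM with calcium, each about 4.5-fold lower, with the same order of the copies in both sprays. The BRCA1 homologue stood at 25.8 RPKM under water and at 0.298 RPKM under calcium, and the size of its ratio depended on how so low a value was treated. In the table as a whole, 47.4% of the genes were at least 2-fold lower with calcium and 15.6% at least 4-fold lower. These genes were chosen from this same contrast, so nothing is read from all 3 being among the lower ones. In bulk RNA, fewer cells that express a gene cannot be told apart from less of its RNA per cell.

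**Figure D1:**
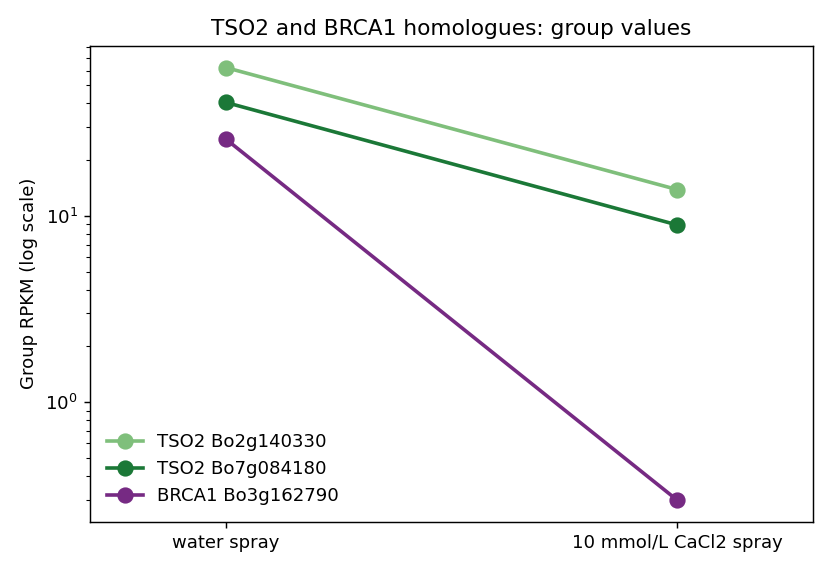
Group RPKM (vertical, log scale) of the TSO2 copies and the BRCA1 homologue with water and with 10 mmol/L calcium chloride, 1 point for each group value. The lines of the TSO2 copies run in parallel, from 62.3 and 40.5 to 13.8 and 8.92 RPKM, while that of BRCA1 goes from 25.8 to 0.298 RPKM.

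The first TSO2 copy, Bo2g140330, was the more abundant, with 62.3 RPKM in the water group and 13.8 RPKM in the calcium group. Its level with calcium was thus 22.2% of that with water, a 4.51-fold difference and a log2 ratio of -2.17. The second copy, Bo7g084180, stood at 40.5 and 8.92 RPKM, or 22.0% of the water level, a 4.54-fold difference and a log2 ratio of -2.18. In both copies the calcium value lay well under the water value, and the water value of the weaker copy was above the calcium value of the stronger one.

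The ratio between the copies hardly differed between the sprays. Bo2g140330 had 1.54 times the RPKM of Bo7g084180 with water and 1.55 times with calcium. It made up 60.6% of their summed RPKM with water and 60.7% with calcium. The sum itself was 103 RPKM in the water group and 22.7 RPKM in the calcium group, a 4.52-fold difference. If each read that matches both copies was counted once, its assignment does not affect such a sum, apart from differences in gene length. Whether reads were counted in this way is not known. Whether the authors' counting shared reads between the copies was not tested, so their values may not be independent of each other.

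The log2 ratios of the TSO2 copies were 0.0088 apart. Such closeness was not particular to the copies, since genes not annotated as TSO2 lay closer still. Bo7g084180 was 0.0017 from the vegetative storage protein gene Bo2g159220 and 0.0020 from Bo2g079330, which has no annotation. Bo2g140330 was 0.0067 from Bo2g079330. The table has 15 pairs of genes that match 1 Arabidopsis gene, drawn from 13 such genes, and their log2 ratios were a median of 0.30 and at most 1.96 apart. The TSO2 pair was the closest of them. Next came the legume lectin pair Bo1g128570 and Bo5g127240, 0.057 apart, and the EF-hand pair Bo4g013260 and Bo4g190880, 0.062 apart. The widest pair was that of plant cadmium resistance 2, Bo8g106400 and Bo8g106450. In 5 of the 15 pairs the copies were more than 1.5-fold apart. Not all pairs are separate, since the RuBisCO small subunit genes Bo4g137140, Bo4g137150 and Bo6g059930 were paired in each combination. Every listed gene differs by 2-fold or more, so a pair appears only where both copies do. Pairs with a copy that differed less are absent, and these distances do not describe gene copies in general. The agreement of the TSO2 copies was one reason for describing them here, so their place in this order is a description and not a test. The pair was also the closest with 0.1, 0.5 or 1 RPKM added to every value. With 2 or 5 RPKM added it was in place 3 of the 15, and with 10 RPKM in place 8, at 0.19 apart, the more abundant copy then having the larger difference.

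**Figure D2:**
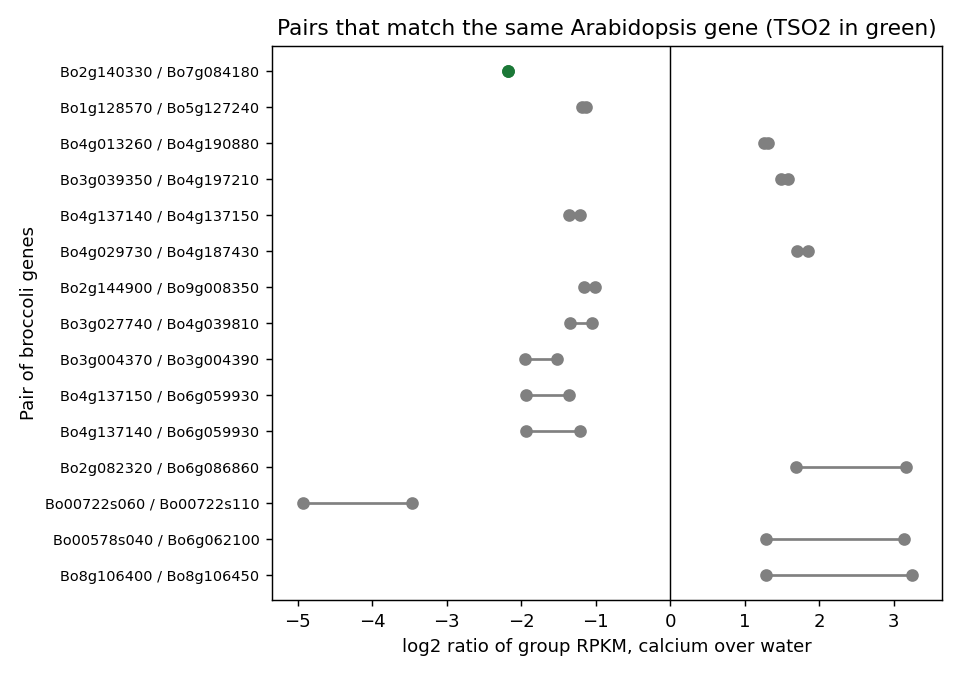
log2 ratio of group RPKM, calcium over water (horizontal), for the 15 pairs of broccoli genes that match the same Arabidopsis gene, 1 row for each pair, 1 point for each gene and the closest pair at the top. The TSO2 points (green) coincide at about -2.18, while the copies of the last pair are 1.96 apart.

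Equal ratios came with unequal adjusted p-values. For Bo2g140330 the authors' deposited table lists an adjusted p of 1.78e-05 and for Bo7g084180 one of 0.00255, which is 143 times higher for the less abundant copy. The genes nearest to the TSO2 copies by log2 ratio, over the 2 group values, were the same 3 for each copy. They were VSP2 (Bo2g159220), a vegetative storage protein that responds to jasmonate in Arabidopsis, at 70.8 and 15.6 RPKM, a gene without annotation (Bo2g079330) at 54.6 and 12.0 RPKM, and a glycosyl hydrolase (Bo1g054940) at 67.0 and 14.6 RPKM. Their differences were 4.55-fold, 4.53-fold and 4.59-fold. The next gene after Bo2g140330 in the order of ratios, Bo2g069600, was at 48.4 and 11.3 RPKM, a log2 ratio of -2.09. With water values running from 40.5 to 70.8 RPKM, the TSO2 copies and the 3 nearest genes had adjusted p-values, in the authors' deposited table, that became smaller at each step up in level, from 0.00255 through 0.000105, 1.78e-05 and 4.74e-06 to 2.18e-06. Within this set the adjusted p followed the level of the gene, at a nearly constant ratio.

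Bo3g162790, the BRCA1 homologue, had the lowest calcium value of all 135 genes. Its 0.298 RPKM was 1.16% of its water value of 25.8 RPKM, an 86.4-fold difference and a log2 ratio of -6.43. Only 2 genes of the table had a calcium value under 1 RPKM, the other being Bo2g017650, which has no annotation and stood at 29.4 and 0.445 RPKM. No gene had a water value under 1 RPKM. The water value of BRCA1 was itself low for the table. It was the lowest of the 64 genes that were lower with calcium, whose median was 92.0 RPKM, and also the lowest value that the higher group of any listed gene reached. Genes under that level in both groups are thus absent, whatever their ratio, and places by ratio hold among the listed genes only. Whether the authors set a limit on level is not known. The TSO2 copies were in places 10 and 22 from the bottom of these 64 water values. The BRCA1 homologue thus had the largest ratio in the table and nearly the smallest fall among the lower genes. At 25.5 RPKM its fall was in place 61 among these 64 genes, against 48.5 RPKM and place 39 for Bo2g140330 and 31.6 RPKM and place 53 for Bo7g084180.

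**Figure D3:**
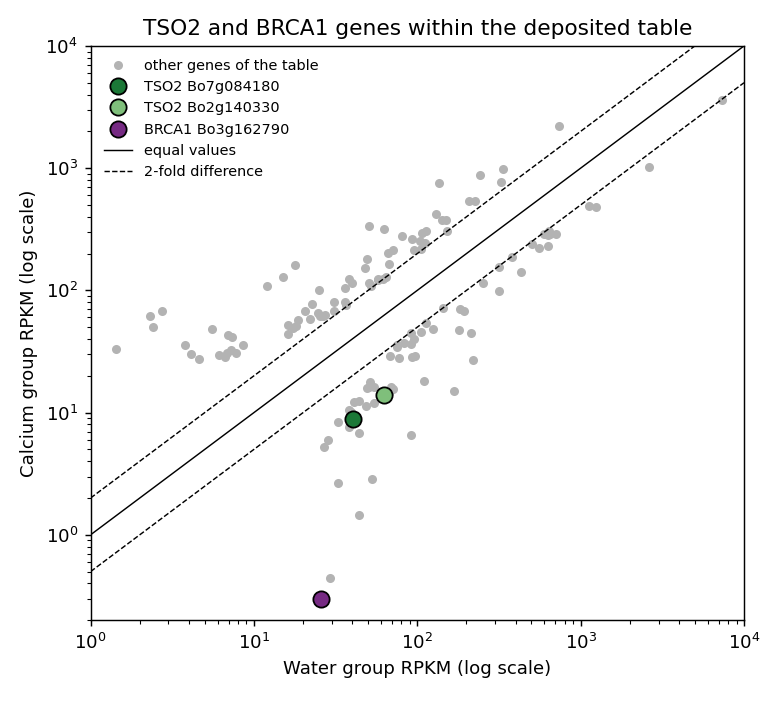
Water group RPKM (horizontal) against calcium group RPKM (vertical), both on log scales, with 1 point for each of the 135 genes, a solid line of equal values and dashed lines of a 2-fold difference. No gene lies between the dashed lines; the TSO2 copies lie among other lower genes of like level, and BRCA1 is the lowest point, at 25.8 and 0.298 RPKM.

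Adding a constant to both group values shows how far the BRCA1 ratio rests on that near-zero value. The difference was 64.9-fold with 0.1 RPKM added, 32.9-fold with 0.5, 20.6-fold with 1, 12.1-fold with 2, 5.80-fold with 5 and 3.47-fold with 10. It reached 10-fold at 2.53 RPKM added, 4-fold at 8.19 and 2-fold only at 25.2. The gene kept the lower value with calcium under each of these, since a constant cannot change the direction. Over the same constants, up to 10 RPKM, the TSO2 differences went from 4.51-fold to 3.04-fold for Bo2g140330 and from 4.54-fold to 2.67-fold for Bo7g084180.

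The first place of BRCA1 among the lower genes also depended on the constant. Bo2g017650 drew level with it at 0.757 RPKM added, and the Kunitz protease inhibitor gene Bo00722s110 at 1.39 RPKM. By log2 ratio these were also its nearest genes, followed by Bo4g194410, with no annotation. Their own differences were 66.2-fold, 30.6-fold and 18.7-fold with nothing added. BRCA1 was in place 2 of all genes with 1 RPKM added, place 3 with 2 RPKM, place 7 with 5 RPKM and place 9 with 10 RPKM. The TSO2 copies were reached much later, at 14.6 RPKM for Bo2g140330 and 35.5 RPKM for Bo7g084180. Below 14.6 RPKM added, the fold difference of BRCA1 was therefore larger than that of either TSO2 copy, and with nothing added it was 19.1 and 19.0 times as large.

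**Figure D4:**
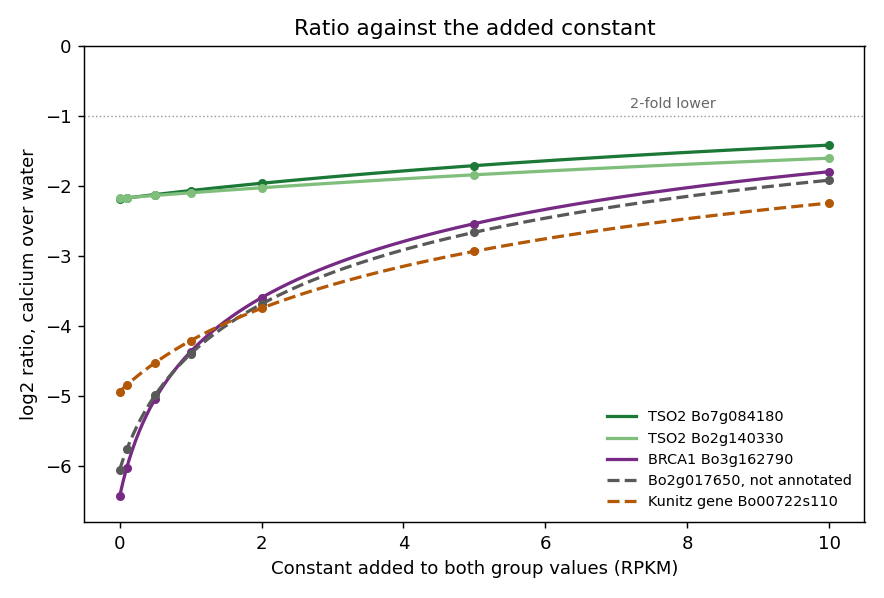
log2 ratio, calcium over water (vertical), against the constant added to both group values in RPKM (horizontal), for the BRCA1 homologue, the TSO2 copies and the genes nearest to BRCA1; points mark the constants given in the text and the dotted line a 2-fold difference. BRCA1 goes from -6.43 to -1.80 over 10 RPKM, while the TSO2 copies go from about -2.18 to -1.60 and -1.42.

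The deposited columns treat the BRCA1 value in different ways. The authors' deposited table gives a fold change of -86.4 on the RPKM values and a log10 difference of -1.94, both negative because calcium was lower. Its fold change on the log10 values is 2.68, with a positive sign. For genes that were lower with calcium that column divides the water log10 value by the calcium one and puts a minus before it, and the log10 of 0.298 is -0.53, which turns the sign. The same happened for Bo2g017650, at 4.17, and for no other of the 135 genes. For the TSO2 copies this column kept the negative sign, at -1.57 and -1.69. The adjusted p of BRCA1 in the authors' deposited table, 0.000265, lay between those of the TSO2 copies, although its ratio was far larger than theirs. The fall divided by the square root of the summed RPKM put the 3 genes in that order. It was 5.56 for Bo2g140330, 4.99 for BRCA1 and 4.49 for Bo7g084180. A test of 2 proportions takes this form for read counts with equal totals. RPKM is also scaled to gene length, so these values do not rank the genes by their counts. The test behind the adjusted p is not known. The authors' deposited table put BRCA1 in its cluster 2, of 8 genes that were at least 8.13-fold lower, and both TSO2 copies in its cluster 3, of 56 genes that were up to 6.45-fold lower.

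A list of 36 annotation words for DNA precursors, replication, repair, checkpoints and the cell cycle matched only these 3 genes. The large subunit of ribonucleotide reductase, BARD1 and PCNA were thus not analysed here. Words for dividing cells, such as cyclin, histone, kinesin and tubulin, matched 0 genes of the table. Every listed gene differs by 2-fold or more, so the lack of a match says nothing of the level of such genes, and the labelled tissue could not be checked against markers of its own. Annotation words chosen for other tissues did match genes of the table, but whether these genes mark such tissues here was not tested. All 12 genes matched by the cotyledon and leaf words were lower with calcium, by between 2.01-fold and 3.83-fold. They are light-harvesting, photosystem I and RuBisCO small subunit genes. Their summed level was 15889 RPKM in the water group and 7147 RPKM in the calcium group, a 2.22-fold difference. The largest part of both sums was the light-harvesting gene Bo4g182560, at 7288 and 3605 RPKM, a 2.02-fold difference. RGF9 (Bo2g166400), the only match to the root words through its annotation as a root meristem growth factor, was 3.36-fold lower. The seed and embryo words matched 2 genes, both higher with calcium and summed at 144 and 426 RPKM. Most of that sum was Bo9g120390, at 142 and 376 RPKM, which matched only through a family name that also covers lipid-transfer proteins. The other, Bo4g190800, annotated as late embryogenesis abundant, stood at 2.42 and 50.1 RPKM. None of these matched genes was at 0. Their part in the TSO2 and BRCA1 differences was not tested.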

How the data were processed

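Transcripts were sequenced from 4 libraries, 2 for each spray. Per the labels' protocols, libraries were prepared from column-purified total RNA with an Illumina TruSeq kit. The submitters' processing notes name CASAVA. Not given in the sources used here are the aligner, the genome build, the annotation, the test behind the adjusted p-value and how a group's libraries were combined. Per the file headers, the authors deposited 1 RPKM per gene for control and for calcium, the log10 of each, differences and signed fold changes, an adjusted p-value and a cluster number. Control was read as water, the group the labels set against calcium. The log10 columns and the fold change on the RPKM values were checked against the RPKM columns. For the fold change on the log10 values, the sign was compared with that of the log2 ratio. RPKM depends on annotated gene length and total mapped reads, which are unknown, so no counting interval is given.

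The 3 genes, the lists and the alternatives were chosen with earlier results of these data known. Ratios are of the RPKM values with nothing added unless stated. limma on single libraries, as intended if the table had held them, was not run. For each gene the 3 other genes nearest in log2 ratio, its neighbours in rank and any match to the word list were named; further genes were chosen after their values were seen. Of the 135 identifiers, 0 were found in the RefSeq gene table at hand, so names come from the deposited annotation. Ratios, ranks and crossing points were tested on simulated data. Python 3.11.15, NumPy 2.4.6, pandas 2.3.3 and matplotlib 3.10.9 were used.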

Additional observations from a re-analysis of the deposited data

How the results depend on the processing

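All 3 genes and the TSO2 sum stayed lower with calcium under every constant and scaling run, but this outcome was fixed in advance. A constant cannot change the direction, the median shift lowers every ratio, and equal column sums multiply the calcium values by only 1.13. These settings therefore bear on the size of the differences and not on their direction. A value was taken as moved when it differed by more than 1.5-fold. The log2 ratio of BRCA1 was -5.04, -4.37, -3.59, -2.54 and -1.80 with 0.5, 1, 2, 5 and 10 RPKM added, against -6.43 with none. That of Bo7g084180 was -1.42 with 10 RPKM added. Shifting the calcium column by the median log2 ratio of the other 132 genes, which is 1.05, gave -7.48 for BRCA1, -3.23 for Bo7g084180, -3.23 for Bo2g140330 and -3.23 for their sum. That median comes from genes selected for differing, so the shift does not normalize the libraries. Equal column sums gave -6.26 for BRCA1 and a 4.02-fold difference for Bo7g084180. The sums also run over genes selected for differing, so this scaling does not normalize the libraries either. A minimum of 1 RPKM in both groups removed BRCA1 and Bo2g017650, leaving 133 genes, and gave no value for BRCA1. Raising the limit from 2-fold to 3-fold left 34 lower genes of 64 and 34 higher genes of 71. No paired analysis was possible because the table holds 1 value for each group, and for the same reason no library could be left out. The unknown depth leaves the error of 0.298 RPKM unknown.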
